A study of Mus musculus with 13 samples.

Results

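The 37 gene symbols described here form 1 set of immune genes followed through a kidney RNA-seq series: macrophage and leukocyte surface genes, lysozyme and C1q, antigen presentation, complement, chemokines and immunoglobulin. They were taken by symbol from the table of estimated counts, which holds 35013 gene symbols, and 36 of the 37 were found there. Tmem173 has no entry. RefSeq lists it as a synonym of Sting1, which the table does hold and whose values are given as a non-member. All 36 were among the 16468 genes that passed the filter on low counts and were tested, although Cd3e (6 to 50 counts per library), Cd79a (5 to 21) and Ccl2 (2 to 44) rested on few reads. The 13 libraries came from kidneys of female mice, and their labels name 4 as Spns1 KO, 5 as WT and 4 as FeO (iron overload). Every group carried Megalin-CreERT, a tamoxifen-activated Cre expressed from the megalin gene in proximal tubule cells, and 1 allele of Uprt behind a floxed stop. The Spns1 KO mice were Spns1 fl/fl. The labels call the other groups Spns1 WT, whereas the methods give them 1 floxed allele (Spns1 fl/+). FeO mice were injected with 12 mg of elemental iron, as iron sucrose, on each of 3 days and killed 1 week later. Ages were not given in the sources used here.

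Uprt, uracil phosphoribosyltransferase, lets a cell build injected 4-thiouracil into new RNA, so that RNA made in Cre-positive cells can be biotinylated and captured on streptavidin. SPNS1 is a lysosomal membrane transporter. Macrophages of the kidney lie between the tubules and take up debris. They make lysozyme and the C1q proteins that start the classical complement pathway, and they signal through adaptors such as TYROBP and FCER1G. MHC class II molecules, assembled on the invariant chain CD74, show peptides from the endolysosome to T cells, and MHC class I molecules, paired with beta-2 microglobulin, show peptides from the cytosol. Epithelial cells of the kidney can also make class I, class II and complement proteins. Immunoglobulin constant regions and the J chain are made by B cells and plasma cells.

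Total counts per library ran from 23068023 to 71296474 (median 29981814). The targeted gene did not separate the groups. Spns1 stood at 39.0, 44.5, 36.6 and 58.9 CPM (counts scaled to a common library size with TMM factors) in the libraries labelled Spns1 KO 1 to 4, at 39.2 to 62.8 CPM in WT and at 39.0 to 58.6 CPM in FeO. The floxed allele loses 1 exon, while a count covers the whole gene. The paper reports loss of Spns1 RNA and of SPNS1 protein in proximal tubules of Megalin-CreERT Spns1 fl/fl mice. Groups are named by their labels throughout. The captured RNA held proximal tubule transcripts, with 12 markers of that cell type summing to 4466 to 6358 CPM in WT, 11801 to 12704 in Spns1 KO and 2733 to 10036 in FeO. It also held red blood cell transcripts, summing over 7 genes to 20.8 to 42.8 CPM in WT, 58.7 to 202.6 in Spns1 KO and 55.2 to 261.0 in FeO. The part of either shift in the results below was not tested. The labels give no batch. Replicates are libraries with separate labels, and p-values measure the spread between these libraries.

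Most of the immune genes stood above WT in both models, Spns1 KO and FeO. Calls required a log2 fold change beyond 0.5 together with an adjusted p under 0.05 (edgeR quasi-likelihood, Benjamini-Hochberg adjustment over all 16468 genes). In Spns1 KO, 18 of the 36 rose and 0 fell, where 14.0% of all genes tested were called higher and 7.55% lower. In FeO, 20 rose and 1 fell (Cxcl1), where 22.4% of all genes were called higher and 19.7% lower. The median log2 fold change over the 36 was 0.95 in Spns1 KO and 0.72 in FeO, beside -0.045 and -0.011 over all genes tested. In each model 35 of the 36 fold changes were above 0, the exceptions being Cd163 in Spns1 KO (-0.26) and Cxcl1 in FeO (-1.79). At an unadjusted p under 0.05, 0 of the 36 lay below WT in Spns1 KO, and DESeq2 and limma-voom also called 0 lower. Every Spns1 KO library lay above every WT library for 17 of the 36 genes (13.1% of all genes tested), and every FeO library did so for 11 (16.9%). The WT libraries are shared by both comparisons. In captured bulk RNA, more cells of a type, more RNA per cell and more RNA without thiouracil in the capture cannot be told apart.

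**Figure D1:**
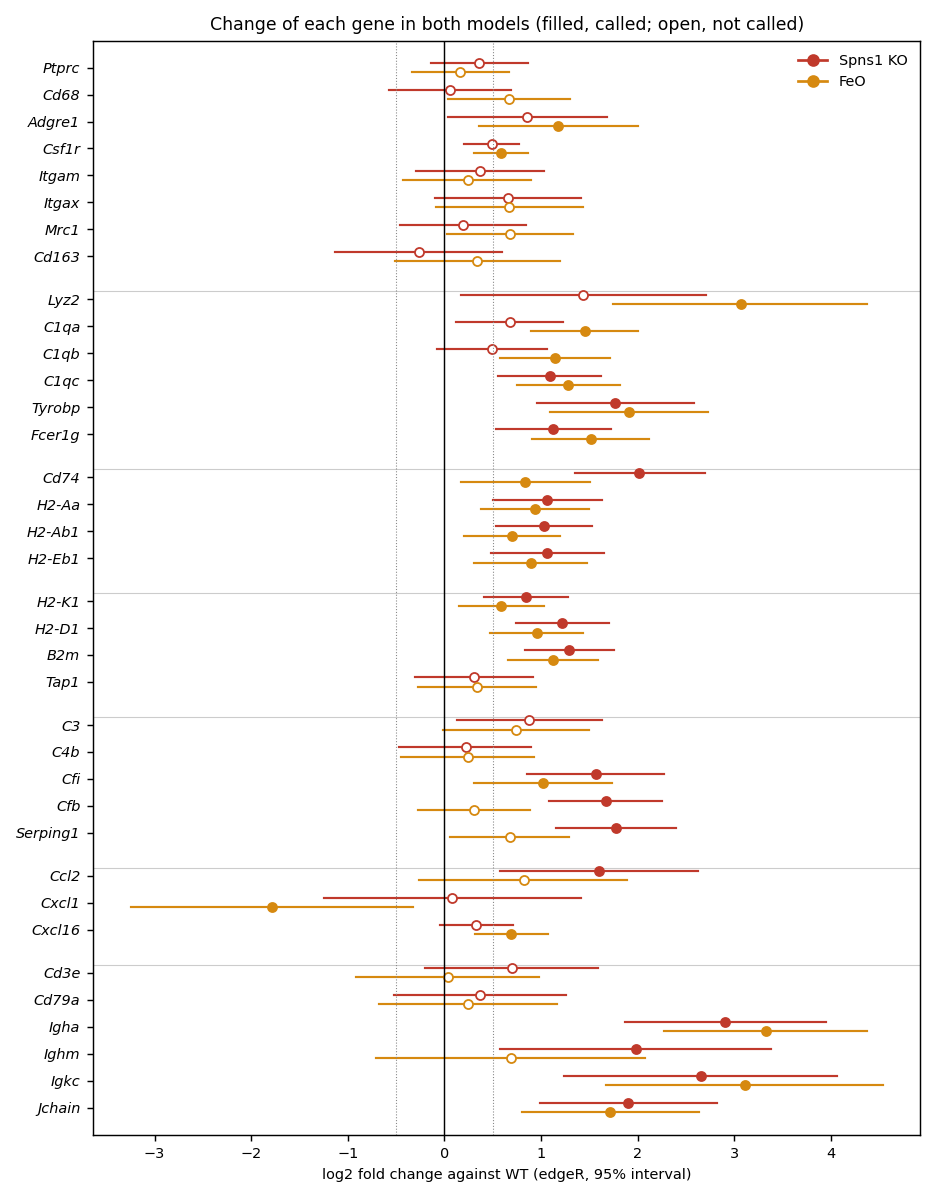
Log2 fold change against WT on the horizontal axis for each of the 36 genes, with 95% intervals from edgeR, Spns1 KO in red and FeO in orange. Filled points are called, open points are not, and dotted lines mark 0.5 in either direction. The antigen presentation genes lie to the right of 0 in both models, while Lyz2 reaches 3.07 in FeO and Cxcl1 falls to -1.79.

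By call, 14 genes were higher in both models: C1qc, Tyrobp, Fcer1g, Cd74, H2-Aa, H2-Ab1, H2-Eb1, H2-K1, H2-D1, B2m, Cfi, Igha, Igkc and Jchain. Another 4 passed in Spns1 KO and not in FeO (Cfb, Serping1, Ccl2 and Ighm), and 6 passed in FeO and not in Spns1 KO (Adgre1, Csf1r, Lyz2, C1qa, C1qb and Cxcl16). A call in 1 model alone does not show that the models differ, and the direct comparison is given further down. Ptprc, Cd68, Itgam, Itgax, Mrc1, Cd163, Tap1, C3, C4b, Cd3e and Cd79a, 11 in all, were called in neither, and the remaining gene, Cxcl1, fell in FeO. On GRCm38 (GENCODE M21), H2-K1, Tap1, H2-Ab1, H2-Aa, H2-Eb1, C4b, Cfb and H2-D1 lie in the MHC region of chromosome 17, from the start of H2-K1 at 33996017 to the end of H2-D1 at 35267499. B2m lies on chromosome 2 from 122147686 to 122153083, Serping1 on chromosome 2 from 84765387 to 84775444 and Lyz2 on chromosome 10 from 117277331 to 117282321. Igha lies on chromosome 12 from 113254830 to 113260236 and Igkc on chromosome 6 from 70726435 to 70726966. Counts cover the whole gene in each case. Where a pair of fold changes follows without group names, the first is Spns1 KO and the second FeO, both against WT on the log2 scale.

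Class II genes were higher in both models, and 3 of the 4 FeO calls depended on the processing. All 4 were called higher in Spns1 KO and in FeO, and every Spns1 KO library lay above every WT library for each of the 4. In FeO that held for 0 of the 4, since FeO 2 and FeO 3 lay near the WT libraries. Cd74, the invariant chain that guides class II molecules to the endolysosome, stood at 27.7, 30.1, 22.9, 27.3 and 32.5 CPM in WT 1 to 5. It stood at 87.8, 119.9, 119.7 and 129.2 CPM in Spns1 KO 1 to 4, and at 53.4, 23.8, 27.0 and 97.0 CPM in FeO 1 to 4. The Spns1 KO libraries were far above WT, whereas the FeO libraries split, with 2 above WT and 2 among it. Cd74 thus rose on the log2 scale by 2.02 in Spns1 KO (standard error 0.32, adjusted p = 0.00076, edgeR) and by 0.84 in FeO (0.31, adjusted p = 0.0393, edgeR). Without FeO 4 the FeO value was 0.33 (adjusted p = 0.258, edgeR), and leaving out any of WT 1 to 4 or FeO 1 also ended that call (adjusted p = 0.0601 to 0.0801, edgeR).

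H2-Aa, the class II alpha chain of I-A, stood at 12.7, 13.9, 11.9, 15.9 and 21.1 CPM in WT. It was at 25.2, 32.0, 35.9 and 33.2 CPM in Spns1 KO and at 43.3, 16.1, 19.2 and 37 CPM in FeO. The Spns1 KO libraries did not overlap WT, while FeO 2 and FeO 3 lay inside the WT range. The rise of H2-Aa came to 1.06 and 0.94 on the log2 scale (standard error 0.26 in both, adjusted p = 0.0104 in both, edgeR). The partner beta chain of I-A, H2-Ab1, ranged over 11.2 to 16.7 CPM in WT, 25.5 to 33.8 in Spns1 KO and 13.4 to 33.2 in FeO. H2-Eb1, the beta chain of I-E, ran from 10.3 to 22.4, from 25.7 to 35.1 and from 14.8 to 40.0 CPM in the same order. Their log2 fold changes were 1.03 and 1.06 in Spns1 KO (adjusted p = 0.00689 and 0.0127, edgeR) and 0.70 and 0.90 in FeO (adjusted p = 0.0254 and 0.0159, edgeR). The FeO call of H2-Ab1 ended without WT 3, FeO 1 or FeO 4 (0.64, 0.49 and 0.58, adjusted p = 0.0587 to 0.103, edgeR) and that of H2-Eb1 without FeO 1 (0.67, adjusted p = 0.068, edgeR). With a trend on transcript length and GC content removed, the FeO values of Cd74, H2-Ab1 and H2-Eb1 were 0.37, 0.19 and 0.52 and H2-Aa was the only one of the 4 still called in FeO, while H2-Ab1 was not called in Spns1 KO (0.53, adjusted p = 0.104, edgeR). The FeO calls of Cd74 and H2-Ab1 also ended by limma-voom and with library totals, and that of Cd74 with only the compared groups. Summed over the 4 genes, class II reached 56.2 to 92.7 CPM in WT, 164.3 to 224.5 in Spns1 KO and 70.7 to 199.2 in FeO.

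**Figure D2:**
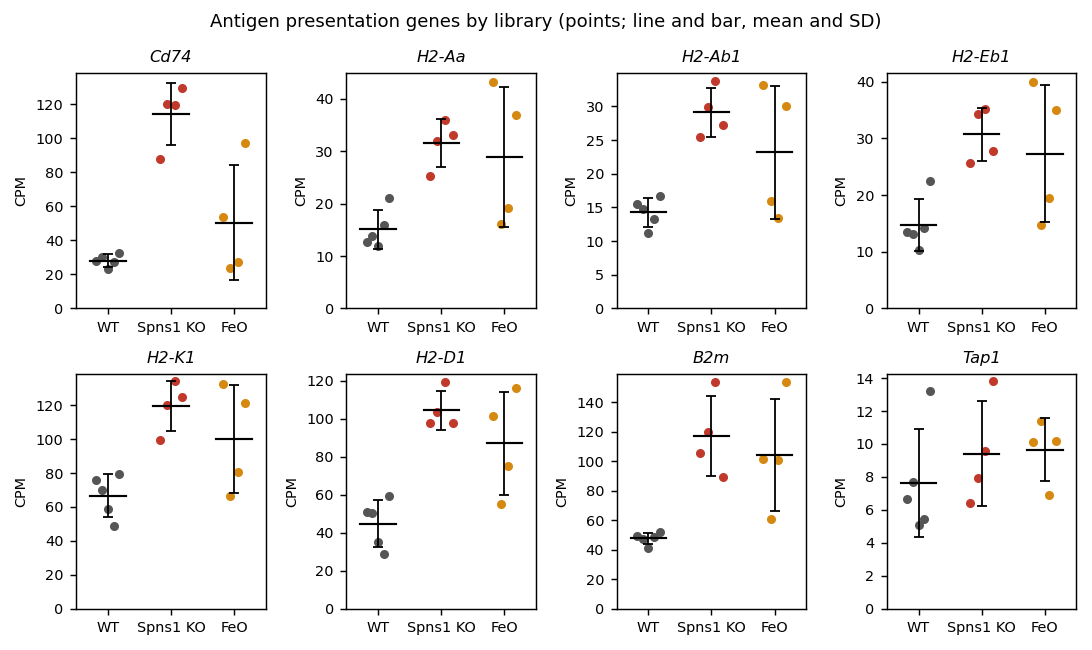
CPM on the vertical axis for the 8 antigen presentation genes, 1 point per library, with the mean as a line and the SD as a bar for WT (n = 5), Spns1 KO (n = 4) and FeO (n = 4). The 4 class II panels show Spns1 KO above WT without overlap and FeO split into a low and a high pair, and in the Tap1 panel the 3 groups overlap.

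Beyond these 4, the wider class II pathway was less uniform. Of 12 other class II genes tested, 4 rose and 0 fell in Spns1 KO, and 1 rose and 2 fell in FeO. In Spns1 KO, 14.0% of all genes tested rose and 7.55% fell. The FeO counts did not exceed the shares of all genes, 22.4% higher and 19.7% lower. Cathepsin S (Ctss), which trims the invariant chain, rose in both models, by 1.18 in Spns1 KO and 2.01 in FeO on the log2 scale (adjusted p = 0.0271 and 0.000798, edgeR). Legumain (Lgmn), a lysosomal protease, rose by 1.09 in Spns1 KO, and H2-DMb1, a peptide-loading chain, by 0.90 (adjusted p = 0.00213 and 0.00864, edgeR). Ciita, the class II transactivator, lay between 3.24 and 4.31 CPM in WT and between 3.30 and 4.65 in Spns1 KO, with a log2 fold change of 0.12 (adjusted p = 0.804, edgeR). In FeO it lay between 0.434 and 2.21 CPM, below every WT library, and its fold change was -1.33 on the log2 scale (SE 0.33, adjusted p = 0.00487, edgeR). Thus in FeO the class II structural genes and Ciita were called in opposite directions.

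Class I genes rose too, with 3 of the 4 called higher in each model. B2m, beta-2 microglobulin, stood at 49.6, 47.5, 41.3, 48.6 and 51.9 CPM in WT. It was at 106.0, 120.1, 153.8 and 89.1 CPM in Spns1 KO and at 101.6, 60.9, 100.7 and 154.0 CPM in FeO. No library of either model overlapped WT. B2m rose by 1.29 and 1.13 on the log2 scale (standard error 0.22 in both, adjusted p = 0.0011 and 0.0012, edgeR). H2-D1, a class I heavy chain, ranged over 28.9 to 59.1 CPM in WT, 97.6 to 119.3 in Spns1 KO and 55.1 to 116.2 in FeO. H2-D1 rose by 1.22 and 0.96 in the 2 models (adjusted p = 0.00195 and 0.00389, edgeR). H2-K1, the other heavy chain, rose by 0.85 and 0.59 (adjusted p = 0.00933 and 0.0295, edgeR), from 48.6 to 79.3 CPM in WT to 99.5 to 134.4 in Spns1 KO and 66.4 to 132.5 in FeO. The FeO call of H2-K1 ended without WT 3, WT 4, FeO 1 or FeO 4 (0.44 to 0.56, adjusted p = 0.0583 to 0.105, edgeR). With the length and GC trend removed, H2-K1 in FeO was 0.27 (adjusted p = 0.246, edgeR), and it was not called with library totals. H2-K1 and H2-D1 share 22.8% and 26.7% of their 31-base sequences with other genes, each other foremost, so the division of reads between them is uncertain. Tap1, which carries peptides into the endoplasmic reticulum, was not called (log2 fold change 0.31 and 0.34, adjusted p = 0.454 and 0.344, edgeR) and reached 13.2 CPM in WT 5 and 13.8 in Spns1 KO 4.

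Other genes of the class I pathway were called higher and never lower. Of 21 other class I genes tested, 13 rose and 0 fell in Spns1 KO, and 11 rose and 0 fell in FeO, and the medians were 0.88 and 0.67. Over all genes tested, 14.0% rose and 7.55% fell in Spns1 KO, and 22.4% and 19.7% in FeO. H2-T23, a nonclassical class I chain, rose by 1.72 in Spns1 KO, from 7.17 to 15.7 CPM in WT to 35.8 to 45.7 (adjusted p = 0.00113, edgeR). The immunoproteasome subunit Psmb10 rose by 1.47 and 1.46, from 0.976 to 2.01 CPM in WT to 2.69 to 5.01 in Spns1 KO and 2.76 to 5.64 in FeO. Calreticulin (Calr), a chaperone of class I folding, rose by 1.80 in FeO, from 132.2 to 163.3 CPM in WT to 368.9 to 694.7 (adjusted p = 0.000337, edgeR).

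Promoters are shown for 3 of the genes above because these genes were called higher in both models and hold the same short sequence, on either strand, near their starts. H2-K1 also met both conditions and is not shown. Of the 36 genes, 21 had a promoter in the RefSeq table (GRCm38.p6), which gives 250 bases before to 50 after each start, and 6 of these 21 were presentation genes. The Y box, an element bound by NF-Y in MHC promoters, was searched as CTGATTGG on either strand (CCAATCAG on the other), and it was chosen after several sequences had been looked at. A match occurred in 5 of the 6, namely H2-Aa, H2-Eb1, H2-K1, H2-D1 and Tap1, against 4.1% of 32851 promoters. The shorter core GATTGG, which lies inside CTGATTGG, occurred in all 6 and in 16.1% of promoters. Tap1 holds the longer form and was not called in either model. Each sequence below is written 5′ to 3′ on the strand of the gene. Capitals mark the match, which is CTGATTGG in H2-Aa and H2-Eb1 and the other-strand form CCAATCAG in H2-D1. H2-Aa is at chr17:34287774-34288073 on the minus strand, H2-Eb1 at chr17:34305617-34305916 on the plus strand and H2-D1 at chr17:35262844-35263143 on the plus strand, all GRCm38.
H2-Aa: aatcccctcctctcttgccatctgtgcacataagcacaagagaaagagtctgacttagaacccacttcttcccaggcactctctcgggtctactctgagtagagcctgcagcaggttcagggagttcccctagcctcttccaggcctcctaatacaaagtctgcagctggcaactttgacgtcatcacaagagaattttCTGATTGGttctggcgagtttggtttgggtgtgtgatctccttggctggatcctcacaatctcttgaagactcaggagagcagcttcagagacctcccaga
H2-Eb1: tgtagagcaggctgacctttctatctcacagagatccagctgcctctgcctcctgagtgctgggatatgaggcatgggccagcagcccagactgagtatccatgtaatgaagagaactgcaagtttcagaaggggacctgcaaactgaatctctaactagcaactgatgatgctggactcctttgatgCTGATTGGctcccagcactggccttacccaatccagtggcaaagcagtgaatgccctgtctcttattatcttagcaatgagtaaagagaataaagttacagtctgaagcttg
H2-D1: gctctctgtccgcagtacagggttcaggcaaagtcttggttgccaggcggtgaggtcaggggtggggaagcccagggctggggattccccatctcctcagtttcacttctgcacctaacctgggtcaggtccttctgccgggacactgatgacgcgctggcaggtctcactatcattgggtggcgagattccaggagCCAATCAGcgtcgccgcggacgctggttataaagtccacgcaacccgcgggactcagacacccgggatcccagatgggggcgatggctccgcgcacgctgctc
The match began 51 bases before the start of H2-Aa, 62 before that of H2-Eb1 and 53 before that of H2-D1. Its place differed in the other genes that hold it. In H2-K1 it began 8 bases after a listed start and 6 before another, and in Tap1 222 before the start. A match of letters is a description. It does not show binding, nor that the marked letters are the functional Y box of that gene.

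Complement held 2 of the 3 genes that differed between the models, Cfb and Serping1. Cfb, factor B of the alternative pathway, stood at 40.9, 37.5, 34.9, 28.4 and 26.4 CPM in WT. It was at 132.4, 94.0, 117.4 and 83.7 CPM in Spns1 KO and at 16.8, 42.1, 46.3 and 61.4 CPM in FeO. All Spns1 KO libraries exceeded all libraries of both other groups, and FeO fell on both sides of WT. Cfb rose by 1.67 on the log2 scale in Spns1 KO (standard error 0.28, adjusted p = 0.000946, edgeR) and had a value of 0.31 in FeO (0.27, adjusted p = 0.368, edgeR). Of the 31-base sequences of Cfb, 75.5% also occur in Gm20547, which overlaps it on the same strand. Without FeO 1, the lowest FeO library, the FeO value of Cfb was 0.59 (adjusted p = 0.0272, edgeR). Serping1, the C1 inhibitor, stood at 10, 11.4, 9.26, 12.7 and 10.7 CPM in WT, at 41.8, 38.0, 41.1 and 27.6 CPM in Spns1 KO and at 15.1, 9.66, 11.0 and 33.4 CPM in FeO. It was higher than WT in every Spns1 KO library, whereas FeO 2 and FeO 3 lay inside the WT range. Serping1 rose by 1.78 in Spns1 KO (standard error 0.29, adjusted p = 0.000921, edgeR) and had 0.68 in FeO (0.29, adjusted p = 0.0683, edgeR). Without FeO 2 or FeO 3 the FeO value of Serping1 was 0.89 or 0.84 and passed (adjusted p = 0.0165 and 0.0385, edgeR).

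Cfi, factor I, which inactivates C3b, rose in both models. It stood between 0.742 and 1.22 CPM in WT, between 1.34 and 3.94 in Spns1 KO and between 1.36 and 3.26 in FeO, so that no library of either model overlapped WT. Cfi rose by 1.57 and 1.02 on the log2 scale (standard errors 0.33 and 0.34, adjusted p = 0.00442 and 0.0224, edgeR), and in FeO it was 0.74 without FeO 4 (adjusted p = 0.0826, edgeR). C3, the central component, was at 38.2, 36.6, 21.7, 32.6 and 18.4 CPM in WT, at 72.7, 56.0, 63.8 and 24.7 CPM in Spns1 KO and at 48.8, 28.5, 30.0 and 90.3 CPM in FeO. Spns1 KO 4 and a pair of FeO libraries overlapped WT, and C3 was not called (log2 fold change 0.88 and 0.74, adjusted p = 0.0831 and 0.0984, edgeR). In Spns1 KO it passed without Spns1 KO 4 or FeO 4 (1.12 and 0.90), and in FeO without FeO 2 (0.95). C4b was not called either (0.22 and 0.24, adjusted p = 0.652 and 0.563, edgeR), and it shares 48.3% of its 31-base sequences with C4a.

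**Figure D3:**
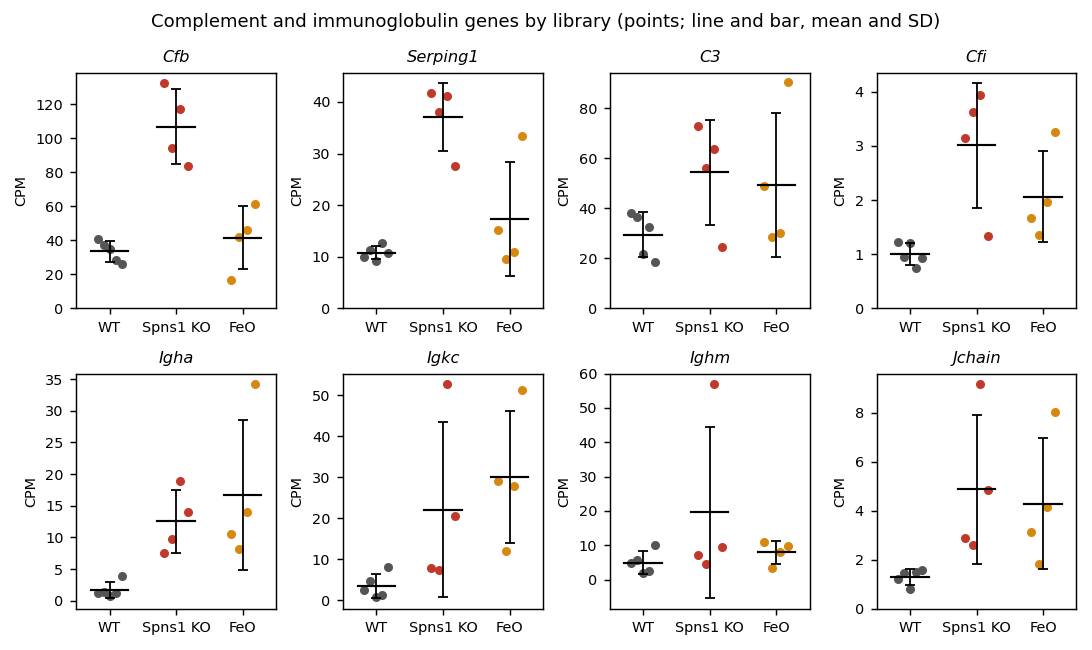
CPM on the vertical axis for 4 complement and 4 immunoglobulin genes, 1 point per library, with the mean as a line and the SD as a bar for WT (n = 5), Spns1 KO (n = 4) and FeO (n = 4). Cfb and Serping1 are high in Spns1 KO, and a single Spns1 KO library, at 56.9 CPM, sets the Ighm mean of that group.

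Among 20 other complement genes tested, 9 rose and 1 fell in Spns1 KO, and 10 rose and 4 fell in FeO. The C1 proteases C1s1 and C1ra rose by 1.60 and 1.42 in Spns1 KO (adjusted p = 0.00499 and 0.00448, edgeR). C1s1 was tight in WT, from 6.96 to 7.33 CPM, against 18.9 to 24.3 in Spns1 KO and 5.38 to 25.8 in FeO. In FeO, Cfd, the protease that cleaves factor B, rose by 1.63 and Clu, a chaperone that restrains the terminal complex, by 1.30 (adjusted p = 0.0177 and 0.00541, edgeR).

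In the main fit, the macrophage genes of lysozyme, C1q and the signalling adaptors were called more often in each model than the surface genes. This difference was not tested. All 6 lysozyme, C1q and adaptor genes were called higher in FeO and 3 in Spns1 KO. Of 8 surface genes, 2 were called in FeO and 0 in Spns1 KO. Over all genes tested, 22.4% were called higher in FeO and 14.0% in Spns1 KO. The surface share in FeO (25.0%) was thus near that of all genes. With a trend on transcript length and GC content removed, the contrast did not hold in Spns1 KO. C1qc and Fcer1g lost their calls there, while Ptprc and Csf1r gained calls. In FeO, C1qb then lost its call, while Ptprc and Mrc1 gained calls. Lyz2, lysozyme of macrophages and neutrophils, stood at 7.35, 10.6, 2.33, 8.12 and 2.74 CPM in WT. It was at 20.4, 7.44, 36.3 and 3.68 CPM in Spns1 KO and at 45.8, 18, 56.6 and 89.2 CPM in FeO. Every FeO library exceeded every WT library, while Spns1 KO 2 and Spns1 KO 4 lay inside the WT range. Lyz2 rose by 3.07 on the log2 scale in FeO (standard error 0.62, adjusted p = 0.00147, edgeR) and had 1.44 in Spns1 KO (0.60, adjusted p = 0.0911, edgeR). Without Spns1 KO 4 the Spns1 KO value was 1.77 and passed (adjusted p = 0.0221, edgeR). Lyz2 shares 32.8% of its 31-base sequences with Lyz1.

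The 3 C1q chains, neighbours on chromosome 4, rose by 1.46 (C1qa), 1.15 (C1qb) and 1.28 (C1qc) in FeO (adjusted p = 0.000778, 0.00358 and 0.00121, edgeR). In Spns1 KO the values were 0.68, 0.49 and 1.09, and C1qc was called (adjusted p = 0.00672, edgeR) while C1qa and C1qb were not (adjusted p = 0.07 and 0.198, edgeR). C1qa passed in Spns1 KO without Spns1 KO 4, WT 5 or FeO 1 (0.77, 0.87 and 0.70, adjusted p = 0.0285 to 0.0479, edgeR). C1qc was at 1.80, 2.74, 1.89, 2.01 and 3.01 CPM in WT, at 4.96, 4.35, 6.28 and 3.91 CPM in Spns1 KO and at 7.11, 3.79, 4.49 and 6.89 CPM in FeO. Neither model overlapped WT for C1qc. Tyrobp, a signalling adaptor of myeloid and NK cells, was at 0.283 to 0.955 CPM in WT, 1.56 to 3.04 in Spns1 KO and 1.26 to 4.5 in FeO. Tyrobp rose by 1.77 and 1.91 (adjusted p = 0.00489 and 0.0015, edgeR), on as few as 9 counts in a library. Fcer1g, the gamma chain of Fc receptors, rose by 1.13 and 1.52 (adjusted p = 0.0107 and 0.000972, edgeR) and did not overlap WT in either model. With the length and GC trend removed, C1qc and Fcer1g in Spns1 KO were 0.59 and 0.58 and C1qb in FeO was 0.62, and none of these 3 was called.

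**Figure D4:**
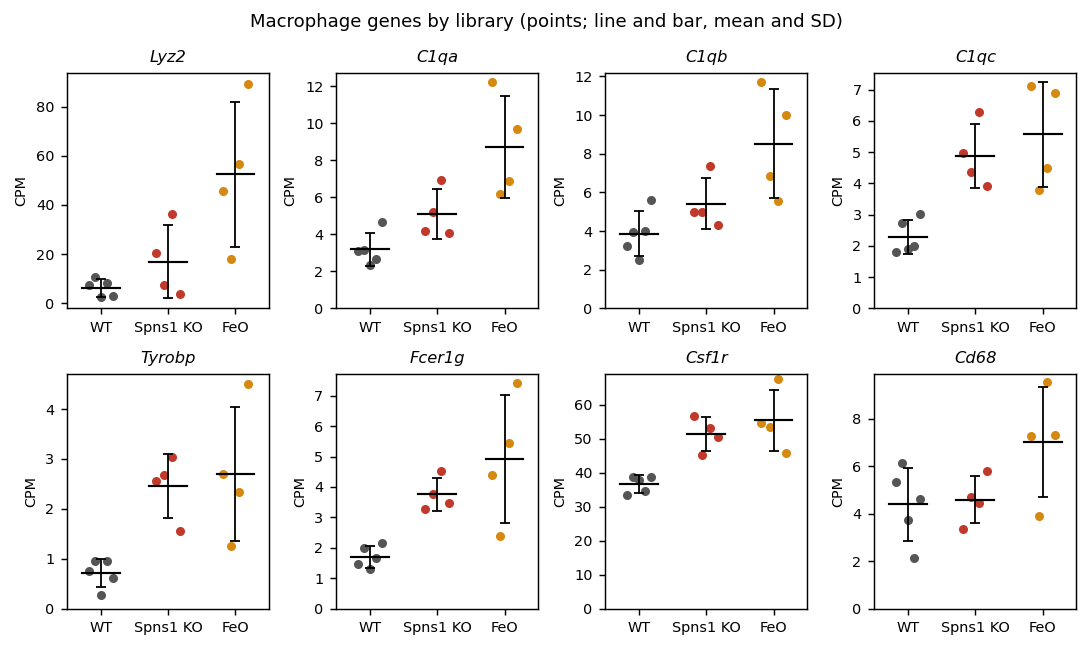
CPM on the vertical axis for 8 macrophage genes, 1 point per library, with the mean as a line and the SD as a bar for WT (n = 5), Spns1 KO (n = 4) and FeO (n = 4). All FeO libraries lie above all WT libraries for Lyz2, C1qa, C1qc, Tyrobp, Fcer1g and Csf1r, and the Cd68 groups overlap.

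Of the surface genes, Csf1r, the receptor that maintains macrophages, was the most abundant per length in WT, at 7.80 CPM per kilobase, against 0.342 for Adgre1, which encodes F4/80. Csf1r stood at 33.3, 38.8, 37.7, 34.7 and 38.8 CPM in WT, at 56.7, 45.1, 53.1 and 50.4 CPM in Spns1 KO and at 54.6, 53.5, 67.4 and 45.8 CPM in FeO. Neither model overlapped WT. Csf1r rose by 0.59 in FeO (adjusted p = 0.00263, edgeR) and its log2 value in Spns1 KO was 0.49 (adjusted p = 0.0167, edgeR), just under the limit of 0.5. Leaving out FeO 3 brought the FeO value under that limit too (0.49), and leaving out Spns1 KO 2, WT 2, WT 3, WT 5, FeO 1, FeO 2 or FeO 4 brought the Spns1 KO value to between 0.50 and 0.54, where it was called. Csf1r overlaps Hmgxb3 on the other strand, and whether counting used strand is not given in the sources used here. Adgre1 rose by 1.18 in FeO (standard error 0.39, adjusted p = 0.0217, edgeR), on 17 to 132 counts, and was not called without WT 1 or FeO 3 (1.10 and 0.97, adjusted p = 0.0511 and 0.0744, edgeR). Its Spns1 KO value of 0.86 passed without WT 4 or FeO 2 (1.19 and 0.88, adjusted p = 0.041 and 0.0469, edgeR). Cd68, Mrc1 and Itgax had FeO values between 0.67 and 0.68 and were not called, although Cd68 passed without FeO 2 (0.89) and Mrc1 without WT 4 (0.91). Ptprc, which encodes the pan-leukocyte protein CD45, had 0.36 in Spns1 KO and 0.16 in FeO. With the length and GC trend removed, Ptprc was 0.72 in both and called (adjusted p = 0.0253 and 0.0144, edgeR), and Mrc1 in FeO was 1.05 and called. Itgam shares 68.1% of its 31-base sequences with Gm49368. Its log2 fold changes of 0.37 and 0.24 were not called.

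In the wider macrophage list of 23 genes tested, 6 rose and 0 fell in Spns1 KO, and 9 rose and 1 fell in FeO. The shares of all genes tested were 14.0% higher and 7.55% lower in Spns1 KO, and 22.4% and 19.7% in FeO. Apoe, an apolipoprotein that macrophages and other cells make, rose in Spns1 KO by 1.99 (adjusted p = 0.000868, edgeR), from 50.1 to 98.4 CPM in WT to 170.4 to 376.3. In FeO it lay between 43.3 and 131.8 CPM. Cd53, a leukocyte tetraspanin, rose in FeO by 2.18 and Mpeg1, a pore-forming macrophage protein, by 2.14 (adjusted p = 0.000399 and 0.00074, edgeR). Cd53 was at 1.58 to 3.91 CPM in Spns1 KO beside 1.89 to 3.32 in WT.

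Igha, Igkc and Jchain rose in both models, with large spread between libraries. Igha, the constant region of immunoglobulin A, stood at 1.28, 1.32, 0.724, 1.17 and 3.90 CPM in WT. It was at 7.49, 9.71, 18.9 and 14.0 CPM in Spns1 KO and at 10.5, 8.20, 14.0 and 34.2 CPM in FeO. No library of either model overlapped WT. Igha rose by 2.91 and 3.33 on the log2 scale (SE 0.49 and 0.50, adjusted p = 0.0011 and 0.000444, edgeR). Igkc, the kappa light chain, was at 2.59, 4.71, 0.756, 1.41 and 8.10 CPM in WT, at 7.84, 7.38, 52.7 and 20.6 CPM in Spns1 KO and at 29.2, 12.1, 27.8 and 51.4 CPM in FeO. FeO did not overlap WT, whereas Spns1 KO 1 and 2 lay below WT 5. Igkc rose by 2.66 and 3.11 (standard error 0.67 in both, adjusted p = 0.0109 and 0.00227, edgeR), and without Spns1 KO 3 the first was 1.77 (adjusted p = 0.0658, edgeR).

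Jchain, which links immunoglobulin A and M into polymers, rose by 1.90 and 1.72 (standard error 0.43 in both, adjusted p = 0.00635 and 0.00542, edgeR), from 0.787 to 1.58 CPM in WT to 2.60 to 9.18 in Spns1 KO and 1.82 to 8.05 in FeO. Without Spns1 KO 3 and 4 together, Jchain in Spns1 KO was 1.08 (adjusted p = 0.09, edgeR). Ighm, the mu heavy chain, was at 4.90, 5.61, 1.83, 2.40 and 10 CPM in WT, at 7.26, 4.65, 56.9 and 9.43 CPM in Spns1 KO and at 10.9, 3.21, 8.0 and 9.74 CPM in FeO. Its Spns1 KO call (log2 fold change 1.98, adjusted p = 0.0405, edgeR) rested on Spns1 KO 3, without which the value was 0.53 (adjusted p = 0.497, edgeR). Leaving out any of WT 1 to 4 also ended that call.

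The lymphocyte receptor genes Cd3e, of T cells, and Cd79a, of B cells, were not called in either model. Of 12 B and plasma cell markers tested, 2 rose and 1 fell in Spns1 KO, and 3 rose and 1 fell in FeO, which are shares near those of all genes tested (14.0% higher and 7.55% lower, 22.4% and 19.7%). Their sums were 36.4 to 49.4 CPM in WT, 42.1 to 51.3 in Spns1 KO and 45.2 to 75.1 in FeO. The list holds Pigr, the epithelial receptor that carries polymeric immunoglobulin A, which rose by 1.40 and 1.19 (adjusted p = 0.0252 and 0.0305, edgeR). Mzb1, a plasma cell chaperone, was the only marker of the 12 called lower in FeO, where 3 were called higher. It fell to 2.16 to 9.53 CPM from 6.78 to 20.7 in WT (log2 fold change -1.30, adjusted p = 0.0181, edgeR). Tnfrsf17, a defining plasma cell receptor, had 0 to 2 counts per library, too few to give a direction. Among 386 other immunoglobulin genes in the table, 184 had no count in any library and 12 were tested, of which 6 rose in Spns1 KO and 8 rose and 1 fell in FeO.

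The 3 chemokine genes behaved differently from each other. Cxcl16, which attracts T and NKT cells and binds oxidized lipids, rose in FeO (log2 fold change 0.69, standard error 0.18, adjusted p = 0.006, edgeR), from 18.5 to 29.8 CPM in WT to 27.0 to 43.3. Ccl2, the monocyte attractant, rose in Spns1 KO (1.60, standard error 0.48, adjusted p = 0.0263, edgeR) on 2 to 44 counts, and leaving out Spns1 KO 3, WT 3 or WT 4 ended the call (1.22, 1.44 and 1.38). Cxcl1, a neutrophil attractant, was at 5.14, 3.88, 2.27, 0.883 and 3.51 CPM in WT, at 0.968, 1.32, 1.34 and 9.69 CPM in Spns1 KO and at 0.492, 0.876, 0.710 and 1.57 CPM in FeO. Spns1 KO 4 was above every other library, and the other Spns1 KO libraries and FeO lay low. Cxcl1 fell in FeO (-1.79, standard error 0.69, adjusted p = 0.0455, edgeR), a call that ended when any of 7 single libraries was left out (-1.53 to -1.87, adjusted p = 0.0568 to 0.121, edgeR). In Spns1 KO it was 0.08, and without Spns1 KO 4 it was -1.38 (adjusted p = 0.0353, edgeR).

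Of 15 other chemokine and cytokine genes tested, 4 rose and 1 fell in Spns1 KO, and 5 rose and 0 fell in FeO. The rises were 26.7% (Spns1 KO) and 33.3% (FeO) of the 15, beside 14.0% and 22.4% of all genes tested. The falls were near or below the rates for all genes, 7.55% (Spns1 KO) and 19.7% (FeO). The 2 myeloid chemokines Ccl6 and Ccl9 rose in FeO by 2.54 and 1.21 (adjusted p = 0.000801 and 0.0321, edgeR), and Cxcl14 rose in both models, by 1.81 and 1.16 (adjusted p = 0.00192 and 0.0123, edgeR). Sting1, the adaptor of cytosolic DNA sensing, stood at 1.23 to 2.02 CPM in WT, 2.29 to 3.06 in Spns1 KO and 1.46 to 3.82 in FeO. Its log2 fold changes of 0.68 and 0.63 missed the threshold (adjusted p = 0.0738 and 0.0666, edgeR). Of 12 genes of the cGAS and STING pathway tested, 1 rose in Spns1 KO (Irf7, 0.77, adjusted p = 0.0251, edgeR) and 1 fell in FeO, and Ifnb1 had 0 counts in every library. Both counts were below the shares of all genes tested.

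Directly compared, the models differed for 3 of the 36 genes, all higher in Spns1 KO than in FeO, where 6.76% of all genes tested were called higher and 8.1% lower. These were Cfb (log2 difference 1.36, standard error 0.29, adjusted p = 0.00925), Serping1 (1.10, 0.31, adjusted p = 0.0279) and Cd74 (1.18, 0.33, adjusted p = 0.0293), all by the same edgeR test. Serping1 lost this call without Spns1 KO 1, Spns1 KO 2, FeO 1 or FeO 3 (0.94 to 1.09, adjusted p = 0.0579 to 0.073, edgeR), and Cd74 without Spns1 KO 2, Spns1 KO 4, FeO 1 or FeO 3 (0.98 to 1.23, adjusted p = 0.0603 to 0.073, edgeR). Cfb kept it without each single library. Lyz2, C1qa and C1qb were lower in Spns1 KO at an unadjusted p under 0.05, by differences of -1.63, -0.78 and -0.66, and not after adjustment (adjusted p = 0.09, 0.0633 and 0.118, edgeR). Of the 36, 0 were called lower by edgeR, 1 by DESeq2 and 2 by limma-voom, and leaving out Spns1 KO 3 or FeO 2 gave 2. For H2-Aa, H2-Eb1 and B2m the differences were 0.13, 0.17 and 0.17, with 95% intervals from -0.47 to 0.72, -0.45 to 0.78 and -0.32 to 0.66. Those intervals allow a log2 difference of over 0.5 in favour of Spns1 KO. Among the other genes, the complement gene C2 was higher in Spns1 KO than in FeO by 1.91 (adjusted p = 0.00269, edgeR), and Cd53, Mpeg1 and Ccl6 were lower, with differences of -2.18, -1.45 and -1.65.

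Individual libraries carried much of the spread within groups. In Spns1 KO, replicate 3 was the highest library for 22 of the 36 genes, and in FeO, replicate 4 was the highest for 20 and replicate 2 the lowest for 26. FeO 4 ranked in the upper pair of its group for 8 of the 8 presentation genes and FeO 1 for 7. In WT, replicate 5 was the highest for 19 genes and replicate 3 the lowest for 19. Without Spns1 KO 3 the number of genes called higher in Spns1 KO was 15, without Spns1 KO 4 it was 21, and without both, an alternative chosen after the data were seen, it was 12, with H2-Aa, H2-K1, Ccl2, Igkc, Ighm and Jchain no longer called.

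**Figure D5:**
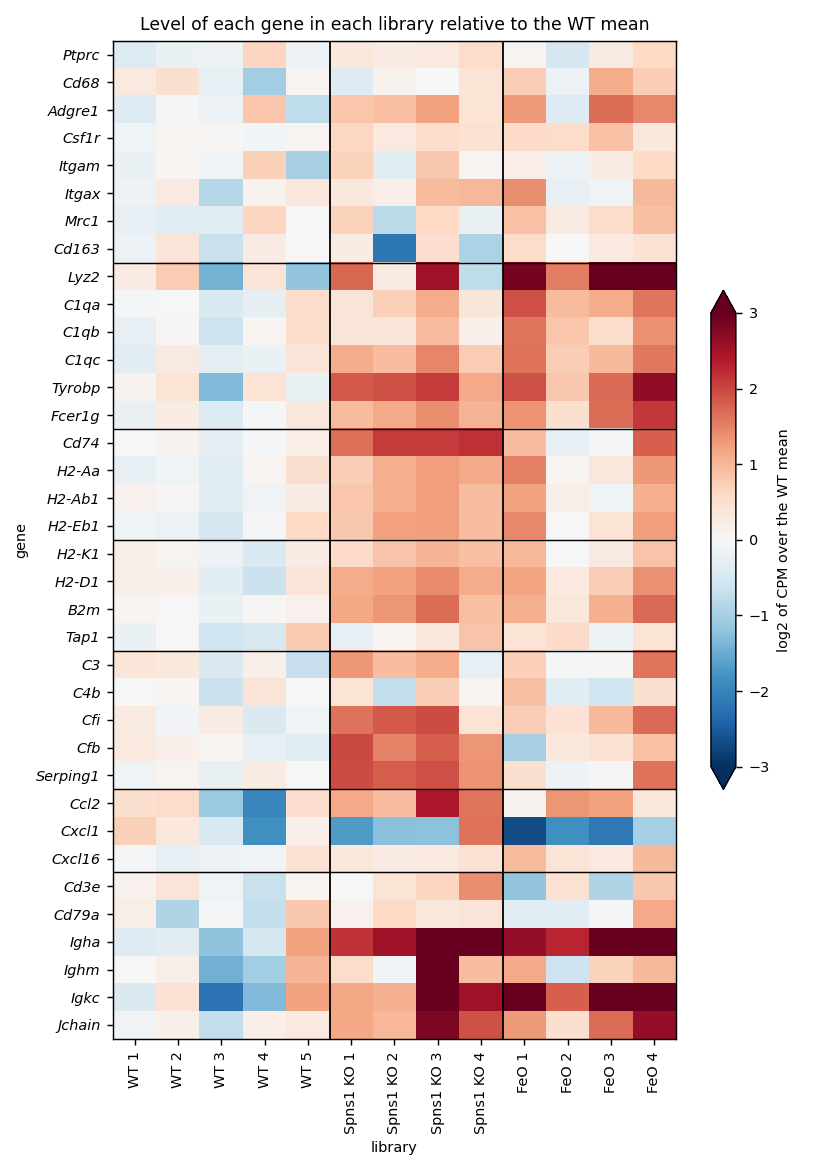
Colour gives the log2 ratio of each library's CPM to the WT mean for each of the 36 genes, on a scale that ends at 3 in either direction, with genes in rows by role and libraries in columns by group. The Spns1 KO and FeO columns are mostly red, FeO 2 is the palest FeO column, and Igha is red in all 8 libraries of the 2 models.

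Transcripts of other kidney and blood cells were also present, and their calls are read beside the shares of all genes tested (14.0% higher and 7.55% lower in Spns1 KO, 22.4% and 19.7% in FeO). Of 12 proximal tubule markers, 7 rose in Spns1 KO and 3 rose and 1 fell in FeO. Of 6 red blood cell genes tested, 6 rose in Spns1 KO and 5 in FeO. Of 10 podocyte and endothelial markers, 3 rose in Spns1 KO, and 4 rose and 1 fell in FeO. Of 8 fibroblast and mural cell markers, 3 rose in Spns1 KO and 1 in FeO, and of 9 loop, distal and collecting duct markers, 3 and 4 rose. Of 9 T and NK cell markers tested, 3 rose in Spns1 KO, and 2 rose and 1 fell in FeO, with sums of at most 19.6 CPM. Of 10 neutrophil, mast cell and dendritic cell markers tested, 1 rose and 1 fell in Spns1 KO, and 0 rose and 3 fell in FeO. Shares called lower in FeO in the proximal tubule, podocyte and T and NK lists were below that of all genes. Shares called higher in FeO were near or below that of all genes in the proximal tubule (25.0%), T and NK (22.2%), fibroblast and neutrophil lists. The shares of the neutrophil list called in Spns1 KO were also near or below those of all genes. The part of these lists in the changes of the immune genes was not tested.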

How the data were processed

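Thiouracil-tagged RNA from 13 mouse kidneys was captured, selected for poly-A and sequenced as paired ends. The authors deposited an estimated count per gene symbol and library, without normalization, and the values were whole numbers as deposited. Per the labels, bcl2fastq 2.19, kallisto 0.44.0, DESeq2 and GRCm38 were used, whereas the methods describe STAR and HTSeq. How transcripts were joined into gene symbols is not given in the sources used here. Samples were grouped by their labels (Spns1 KO 4, WT 5, FeO 4). Genes kept by filterByExpr (16468 of 35013) were fitted with edgeR 4.0.16 (R 4.3.3) in 1 model of 13 libraries, with TMM factors, the quasi-likelihood test and Benjamini-Hochberg adjustment. Calls needed an adjusted p under 0.05 and a log2 fold change beyond 0.5. CPM are counts scaled to TMM-adjusted library sizes, and levels per kilobase use the longest GENCODE M21 transcript, an approximation. The script was tested on simulated data.

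Alternatives were DESeq2 1.42.0, limma-voom (limma 3.58.1), other scalings, no filter on low counts, only the compared groups, the replicate block, removal of a trend on length and GC content (mgcv 1.9.3), and leaving out each library. The genes, lists and rules were chosen with earlier results of these data known. All listed genes are accounted for. From each further list, called genes averaging at least 100 counts were named by fold change, up to 3 per comparison, beside markers of cell types. A single gene named by this rule is not reported here. Between 23068023 and 71296474 counts per library limit precision most for genes under 50 counts, and sampling error of counts enters the fitted standard errors.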

Additional observations from a re-analysis of the deposited data

Results flagged for a closer look

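Of 108 sets of values, each 1 gene in 1 group, 6 had a library that stood apart from the rest of its group, where about 1 in 20 would by chance. Ptprc was at 13.5 CPM in WT 4, against 6.48 to 7.76 CPM in the other WT libraries. Cxcl1 was at 9.69 CPM in Spns1 KO 4, against 0.968 to 1.34 CPM. Cxcl16 was at 29.8 CPM in WT 5, against 18.5 to 21.7 CPM. Cd79a was at 0.637 CPM in FeO 4, against 0.227 to 0.276 CPM. Igha was at 3.90 CPM in WT 5, against 0.724 to 1.32 CPM. Ighm was at 56.9 CPM in Spns1 KO 3, against 4.65 to 9.43 CPM.

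The genes Cd74, Cfb and Serping1 differed between the models in edgeR's test of the difference itself. The log2 fold change of Spns1 KO against FeO was 1.18 for Cd74, 1.36 for Cfb and 1.10 for Serping1. In each case the Spns1 KO value was the higher.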

How the results depend on the processing

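Of the 18 genes called in Spns1 KO, 15 kept the call without each of the 13 libraries in turn and 10 also in the 10 other settings (Cd74, H2-Aa, H2-Eb1, H2-D1, B2m, Cfi, Cfb, Serping1, Igha and Jchain), and of these 10, H2-Aa (0.93) and Jchain (1.08) lost it without Spns1 KO 3 and 4 together. Of the 21 called in FeO, 13 kept it without each library and 12 in all settings (Lyz2, C1qa, C1qc, Tyrobp, Fcer1g, H2-Aa, H2-D1, B2m, Cxcl16, Igha, Igkc and Jchain). Members called higher in Spns1 KO against WT ranged from 15 to 21 without single libraries and lower from 0 to 1. Members called higher in FeO against WT ranged from 16 to 23 and lower from 0 to 1, and limma-voom gave 0 lower. Members called higher in Spns1 KO against FeO ranged from 1 to 3, with 1 when only the 2 groups were fitted and 1 without Spns1 KO 3 and 4 together. Members called lower there ranged from 0 to 2, with 1 by DESeq2, 2 by limma-voom and 1 after the length and GC trend was removed. With the trend removed, 15 genes were higher in Spns1 KO and 17 in FeO. H2-Ab1, C1qc, Fcer1g, Ccl2 and Ighm then lost their call in Spns1 KO, and Cd74, H2-Ab1, H2-Eb1, H2-K1, Cfi and C1qb theirs in FeO, while Ptprc and Csf1r gained a call in Spns1 KO and Ptprc, Mrc1 and C3 in FeO.

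Same-numbered libraries did not deviate together as a rule (12 pairs, correlations from -0.296 to 0.256, 4 over 0.1, and 3 libraries most alike to their own number). The main fit did not pair samples by number. The paper describes the WT kidneys as from littermates, and these correlations cannot show whether mice were matched. With the replicate block, 17 members were higher in Spns1 KO against WT and 16 in FeO against WT, and with the block and the length and GC trend removed, 12 and 16.

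Directions turned for these uncalled genes in Spns1 KO: Cd68 was -0.06 with library totals, -0.32 with the trend removed, -0.35 with the trend and the replicate block and -0.12 without Spns1 KO 3 and 4 together, and -0.09 to 0.21 without single libraries. C1qb was -0.06 with the trend removed. Mrc1 ranged from -0.03 to 0.42, Cd163 from -0.62 to 0.05 and C4b from -0.0018 to 0.43 without single libraries, and without Spns1 KO 3 and 4 together C4b was -0.04 and Tap1 -0.09. Cxcl1 was -0.47 by limma-voom, -0.05 with library totals, -0.60 with the block, -0.75 with the trend and the block and -1.46 without Spns1 KO 3 and 4 together, and -1.38 to 0.40 without single libraries. In FeO, C4b ranged from -0.06 to 0.44 without single libraries. Cd3e was -0.15 by limma-voom, -0.12 with the block, -0.07 with the trend removed and -0.24 with both, and -0.31 to 0.31 without single libraries. Cd79a was -0.19 with the trend removed and -0.04 with the trend and the block, and -0.21 to 0.53 without single libraries. The cause of each change was not tested. Cd3e, Cd79a and Ccl2 have too few reads for small changes to be detectable.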
